A study of Arabidopsis thaliana with 9 samples.

Results

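DNA affinity purification of the Arabidopsis transcription factor NAC103 gave 4561 regions on the chromosome arms that lie deep inside protein-coding genes and carry no ChIP peak. They were chosen in steps from the peak lists. DAP peaks sharing 1 bp or more were joined into 23389 regions on chromosomes 1 to 5. Of these, 18082 held a peak of each replicate, and 14344 of those lay on the arms, outside the pericentromeric stretches at 11.5 to 17.7 Mb (chromosome 1), 1.1 to 7.2 Mb (2), 10.3 to 17.3 Mb (3), 1.5 to 6.3 Mb (4) and 9 to 16 Mb (5). In 5682 the midpoint was more than 500 bp from both ends of a TAIR10 coding gene ("deep"), and 4561 of these overlapped no peak of any ChIP list. Because the choice used every list, the values below describe the regions and carry no test. The label held by construction: DAP-only here means that no ChIP peak was listed, not that no protein was there.

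NAC103 was mapped in whole Arabidopsis thaliana seedlings by 2 assays. For ChIP, seedlings with a NAC103-GFP fusion under the 35S promoter, a promoter that is active in most tissues, were grown for 5 days and kept in 20 µM MG132, a proteasome inhibitor, for the last 24 h before harvest; there were 3 replicates, each with its own input. For DAP, a NAC103-Halo fusion was bound to genomic DNA of untreated Col seedlings, also 5 days old, in 2 replicates that shared 1 input. The ChIP lists held 4208, 14320 and 17095 peaks and the DAP lists 20792 and 21011. No ChIP of untagged or GFP-only seedlings was used here. The lists give no read totals, so depth is unknown, and the ChIP lists differ in length, so a region can miss a peak in 1 list and have it in another. Genotype, treatment and assay differ together between ChIP and DAP and cannot be told apart.

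NAC proteins are a large family of plant transcription factors, named after NAM, ATAF and CUC, that bind DNA through a conserved domain at the N terminus. NAC103 is known from the unfolded protein response, where it acts downstream of the factor bZIP60. DAP reads where a protein can bind purified DNA, which as a rule keeps its cytosine methylation but has lost nucleosomes and other proteins. ChIP reads where the fusion is found on chromatin in the plant. Most known plant regulatory sites lie near gene ends, so the interior of long genes is a place where the 2 readouts can be set side by side away from promoters.

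The regions made up 31.8% of the 14344 arm DAP regions (95% exact binomial interval 31.04 to 32.57, counting error only) and 80.3% of the 5682 deep ones (79.2 to 81.3). Over the whole arms, 10144 of 14344 DAP regions, or 70.7%, had no ChIP peak, so the share in deep positions was read against that level. The deep interior of coding genes covered 35.5 Mb of 88.0 Mb of arm sequence, which is 40.3%. Of all arm DAP regions 39.6% were deep, close to that share of sequence. Of arm DAP regions without a ChIP peak 45.0% were deep, and of those with one 26.7%. Of the 8776 arm ChIP regions with a peak in at least 2 lists, 1320 (15.0%) were deep. DAP regions were thus about as dense in deep interiors (159.9 per Mb) as on the arms at large (162.9 per Mb), while ChIP regions numbered 37.2 per Mb in deep interiors against 99.7 per Mb on the arms. The arm values include the deep part and average over unlike places. DAP regions numbered 129.3 per Mb outside coding genes and 193.9 to 223.3 in the bins within 500 bp of a gene end. Within deep interiors they went from 207.0 per Mb at 500 to 750 bp to 95.3 beyond 3000 bp.

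The share without a ChIP peak was higher farther into the gene. It was 61.2% where the midpoint lay up to 100 bp from the nearer gene end, 57.0% at 100 to 250 bp and 63.3% at 250 to 500 bp. Inside the deep zone it was 71.5% at 500 to 750 bp, 80.1% at 750 to 1000 bp, 84.3% at 1000 to 1500 bp, 89.8% at 1500 to 2000 bp and 95.6% at 2000 to 3000 bp. Beyond 3000 bp, where 157 DAP regions lay, it was 93.0% (interval 87.8 to 96.5). Outside coding genes it was 68.7%. From 100 bp inward both densities were lower with distance, the ChIP density by the wider margin. DAP regions numbered 193.9 per Mb in the first 100 bp, 223.3 at 100 to 250 bp and 100.9 at 2000 to 3000 bp. ChIP regions numbered 246.8, 223.6 and 8.80 per Mb over the same bins. The median width of the DAP regions, which bears on how easily they meet a ChIP peak, was 419 bp at 100 to 250 bp and 392 bp at 2000 to 3000 bp. Only long genes reach the far bins, and gene length was not separated from distance there.

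**Figure D1:**
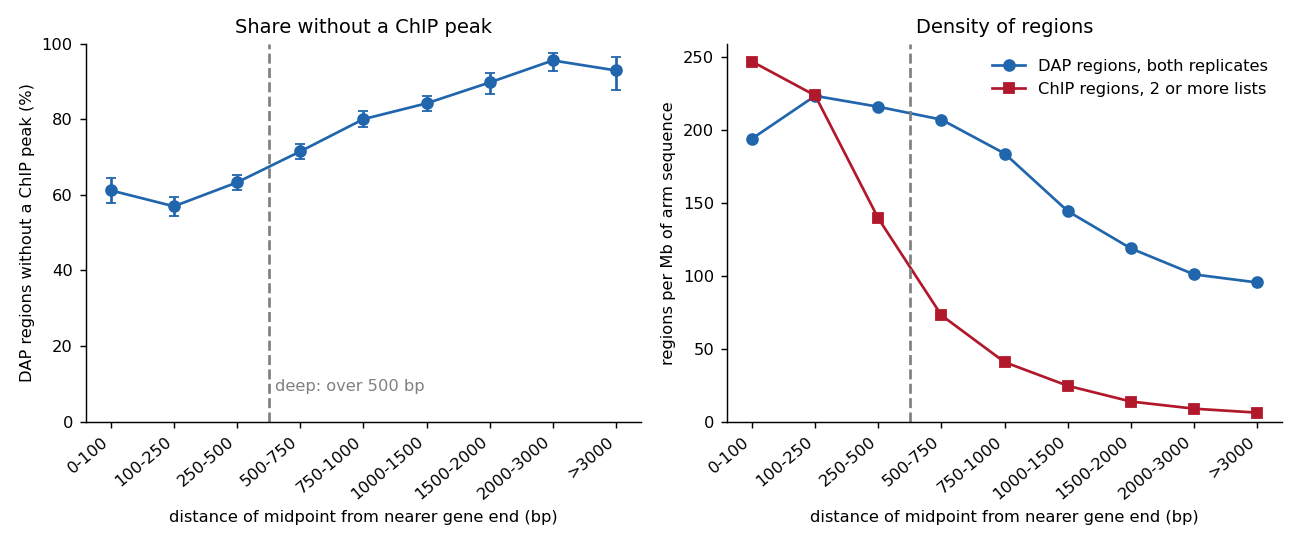
Left, the percentage of arm DAP regions with a peak in both replicates that had no ChIP peak (bars, 95% exact binomial intervals), by distance of the midpoint from the nearer end of the coding gene in bp. Right, DAP regions and ChIP regions (peak in at least 2 lists) per Mb of arm sequence in the same bins; the share rises from 57.0% at 100 to 250 bp to 95.6% at 2000 to 3000 bp, where ChIP regions number 8.80 per Mb and DAP regions 100.9 per Mb.

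Each ChIP replicate taken alone had its lowest overlap with DAP regions in deep positions. Replicate 1 had a peak on 2.25% of the deep regions, against 6.12% of the 4740 DAP regions inside genes but within 500 bp of an end and 8.16% of the 3922 outside coding genes. Replicate 2 had 16.5%, against 29.0% and 21.4%. Replicate 3 had 9.96%, against 27.4% and 24.8%. The spread between the 3 replicates was of the size of the difference between places, at 9.57% ± 7.13 (SD, n = 3) in deep positions and 20.8% ± 12.8 (SD, n = 3) near gene ends, but the order of deep and near-end positions was the same in 3 of 3 replicates. Of the 1121 deep DAP regions left out for a ChIP peak, 531 had one of replicate 2 alone, 160 of replicate 3 alone and 13 of replicate 1 alone, 417 had a peak in 2 or more lists and 93 in all of them. With any list counted, 80.3% of deep and 60.9% of near-end DAP regions had no ChIP peak, a difference of 19.4 percentage points. With peaks of a −log10 q of at least 10 in all lists the shares were 94.8% and 87.6%, and the difference was 7.25 points. Where a ChIP peak had to cover at least 50% of the DAP region they were 89.8% and 78.0%, and the difference was 11.9 points.

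**Figure D2:**
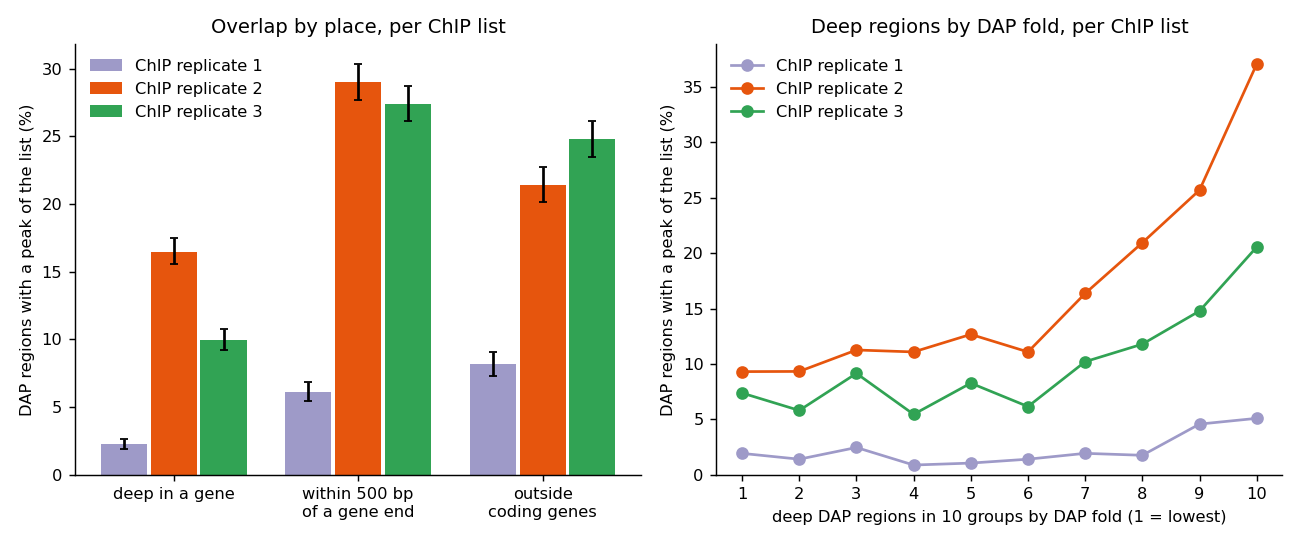
Left, the percentage of arm DAP regions with a peak of each ChIP replicate (bars with 95% exact binomial intervals), in deep positions, within 500 bp of a gene end and outside coding genes; each replicate is lowest in deep positions. Right, the same percentage for deep DAP regions in 10 equal groups by DAP fold, 1 being the lowest; replicate 2 goes from 9.31% to 37.1% and replicate 3 from 7.38% to 20.6%.

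The DAP signal of the regions was moderate and close in both replicates. The fold over background, which the authors' lists give for each peak as a ratio, had a median of 2.88 in replicate 1 and 2.86 in replicate 2, and the middle 50% lay between 2.36 and 3.77 and between 2.35 and 3.74. The lowest value was 1.43 and the highest 28.9 in replicate 1; in replicate 2 they were 1.47 and 26.0. A fold over 5 was reached by 456 regions in replicate 1, by 440 in replicate 2 and by 392 in both. Fold was over 10 in both replicates in 26 regions and under 2 in both in 254. The summits of the replicates lay a median of 9 bp apart and within 20 bp in 72.7% of the regions, and the folds were within 10% of each other in 2951 (64.7%). The median width was 414 bp.

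Deep DAP regions that did have a ChIP peak had stronger DAP signal. Their median fold was 3.61 in replicate 1 and 3.66 in replicate 2, and 24.6% and 24.98% of them passed 5, against 9.998% and 9.65% of the regions without a ChIP peak. They were also wider, with a median of 498 bp. The 5583 arm DAP regions without a ChIP peak that were not deep had medians of 2.78 and 2.77 and a width of 417 bp, close to the deep ones without a peak. With the deep regions in 10 equal groups by DAP fold, the share without a ChIP peak was 86.8% in the lowest group, 86.3% in the sixth and 58.5% in the highest. The difference was present in each of 5 width classes, each split into 3 groups by fold. It was smallest up to 350 bp, with overlapping intervals. There 90.0% of the lowest group (86.9 to 92.6) and 84.9% of the highest (81.2 to 88.1) had no ChIP peak. Between 350 and 450 bp, 88.3% of the lowest group and 74.7% of the highest had no ChIP peak, and above 800 bp 75.4% and 58.2%. In the strongest of the 10 groups, with median folds of 6.51 and 6.604, 333 of 569 regions carried no ChIP peak.

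The fold and the p-value of a peak together give the number of overlapping fragments at its summit, if the caller added 1 to signal and background; a whole number met the deposited −log10 p within 0.01 in 100% of the regions. The median pileup was 138 fragments in DAP replicate 1 and 144 in replicate 2. It was 173 and 183 in the deep regions with a ChIP peak. The background was the same value, 47.2 fragments in replicate 1, for 97.7% of the regions without a ChIP peak, and 49.3 in replicate 2 for 97.5%. The same single values stood behind 97.9% and 98.1% of the deep regions with a ChIP peak, so differences in fold between these classes were differences in pileup.

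The strongest regions, ranked by their mean percentile of fold over both DAP replicates, are given by name. First was a region of 1172 bp in AT2G18540 (chr2:8042250-8043421), with a fold of 28.9 in replicate 1 and 26.0 in replicate 2 and pileups of 1395 and 1305 fragments. Its midpoint was 739.5 bp from the nearer end of a gene of 2938 bp, and the nearest ChIP peak of any list was 1358 bp away. The second, in AT5G15780 (chr5:5144778-5145642), had folds of 18.4 and 17.5, and the third, in AT1G75260 (chr1:28248161-28249375), 14.5 and 15.3. The gene table gives these loci no symbol. All 3 stood above the other regions in both replicates.

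Among the next were genes with known functions. RAD5, also called RAD5A, encodes an SNF2-type protein of DNA damage tolerance; its region (chr5:7570198-7570714) had folds of 14.0 and 13.9, with a ChIP peak 186 bp away. PRK5 encodes a receptor-like kinase of pollen, and its region (chr1:18743645-18744512) had 12.8 and 12.3. MSL5, of the mechanosensitive channel family, had 11.7 and 11.3. GAD2, a glutamate decarboxylase that makes GABA, had 11.4 and 11.2; a ChIP peak lay 23 bp from this region (chr1:24556924-24557441), so its place outside the ChIP lists rests on a narrow gap. SUVH9, a methyl-DNA reader that helps to recruit RNA polymerase V in RNA-directed DNA methylation, had 11.1 and 10.9 (chr4:7825270-7825993), and here the nearest ChIP peak was 14574 bp away. The other 7 of the first 15 lay in AT1G76780, AT3G10680, AT3G24490, AT3G48770, AT2G02890, AT3G61680 and AT4G20160, with folds between 10.9 and 14.0.

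**Figure D3:**
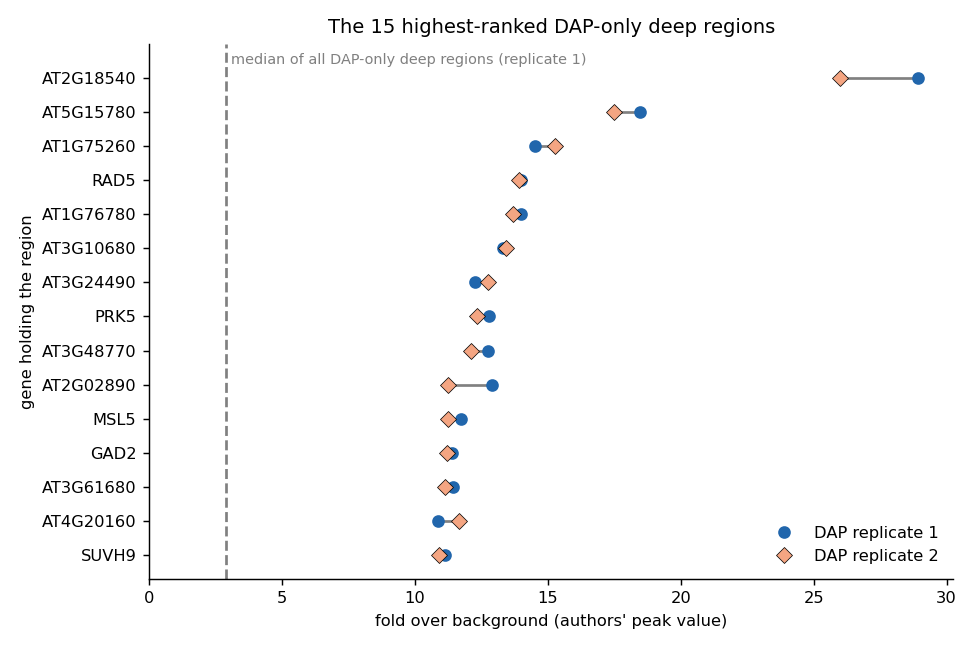
Fold over background, as the authors' lists give it, in DAP replicate 1 (circles) and replicate 2 (diamonds) for the 15 DAP-only deep regions with the highest mean percentile of fold, each named by its gene. The dashed line is the replicate 1 median of all such regions, 2.88; every point lies above 10.

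At the other side, NAC103 itself (AT5G64060) shows what the rule left out. The DAP region in this gene (chr5:25635112-25636010) had folds of 9.95 and 9.33, but its midpoint was 228 bp from the nearer gene end and it overlapped peaks of ChIP replicates 2 and 3. The 3 regions nearest to the 500 bp limit on its inner side had folds below 2.92 and 2.90. These are the medians of all regions at 500 to 750 bp without a ChIP peak. The 3 on its outer side had folds below 3.01 and 2.98, the same medians at 250 to 500 bp. All were picked by distance alone, so their folds do not describe the signal at the limit. Just inside, at 500.5 bp, were regions in JMJ18, a histone H3K4 demethylase (1.93 and 1.49), AT3G24506 (2.03 and 1.79) and AT4G21140 (2.74 and 2.27). Just outside were OLI2, a nucleolar protein of ribosome formation, at 500 bp (2.72 and 2.37), FLP, a MYB factor of stomatal development, at 499.5 bp (2.32 and 2.41) and p24delta5, a cargo receptor of the early secretory pathway, at 499.5 bp (2.07 and 2.19). By the summit of the best-ranked peak in place of the midpoint, 4366 of the 4561 (95.7%) were also deep.

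Distances to ChIP peaks are given for these regions only, so closeness to a peak cannot be read as a trait of them. The ChIP lists held 3658, 13271 and 15645 peaks on the 88.0 Mb of arm sequence. The nearest ChIP peak of any list lay a median of 1330 bp away, and for the middle 50% between 509 and 2941 bp. It was within 100 bp for 216 regions and within 500 bp for 1126 (24.7%), and more than 5000 bp away for 524 (11.5%). For single replicates the median distance was 10057 bp to a peak of ChIP 1, 2525 bp to ChIP 2 and 1801 bp to ChIP 3, in the order of the lengths of those lists.

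The regions were found on all chromosomes at similar densities. There were 1250 on chromosome 1, 695 on chromosome 2, 814 on chromosome 3, 730 on chromosome 4 and 1072 on chromosome 5. Per Mb of deep interior this came to 128.0, 133.9, 119.6, 132.2 and 130.2, against 128.4 over all. Chromosome 3 was the lowest, with a Poisson interval of 111.5 to 128.1 that ended just below the overall value. Along the gene, measured by coordinate because strand was not analysed here, 7.19% lay in the first 20% and 7.30% in the last 20%, where the distance rule leaves little room, and 27.8%, 29.6% and 28.1% in the steps of 20% between. The midpoint was a median of 948 bp from the nearer gene end and at most 11514.5 bp. An annotated noncoding gene or pseudogene overlapped 82 regions (1.80%).

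The regions lay in 4135 coding genes, which is 20.0% of the 20631 arm coding genes long enough to hold one. Long genes held them more often. Of genes of 1000 to 1500 bp 3.39% did, of those of 2000 to 2500 bp 17.8%, of those of 4000 to 5000 bp 36.3% and of those above 7000 bp 59.1%. Genes with a region had a median length of 3076 bp, and the other eligible genes 2189 bp. Per Mb of deep interior the order was the other way from 1500 bp on, with 132.2 at 1000 to 1500 bp, 163.8 at 1500 to 2000 bp, 125.9 at 3000 to 4000 bp and 102.5 above 7000 bp. A reproducible ChIP region in the gene or within 1000 bp of it was present for 1658 genes with a region (40.1%) and for 45.5% of the other eligible genes. Part of this difference is built in, because a ChIP peak on a deep DAP region moves a gene to the second group; among the 15517 eligible genes with no deep DAP region at all the share was 43.7%. That comparison is not free of the choice either. Each gene with a region was picked for an interior stretch without a ChIP peak, which alone can lower its share. How much of the difference this makes was not tested, and no conclusion is drawn from it. In each length class up to 7000 bp the share was lower in genes with a region than in those with no deep DAP region. It was 32.3% against 42.2% at 1500 to 2000 bp and 41.8% against 45.4% at 3000 to 4000 bp. Above 7000 bp the order turned, at 50.2% of genes with a region and 43.1% of those with no deep DAP region.

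**Figure D4:**
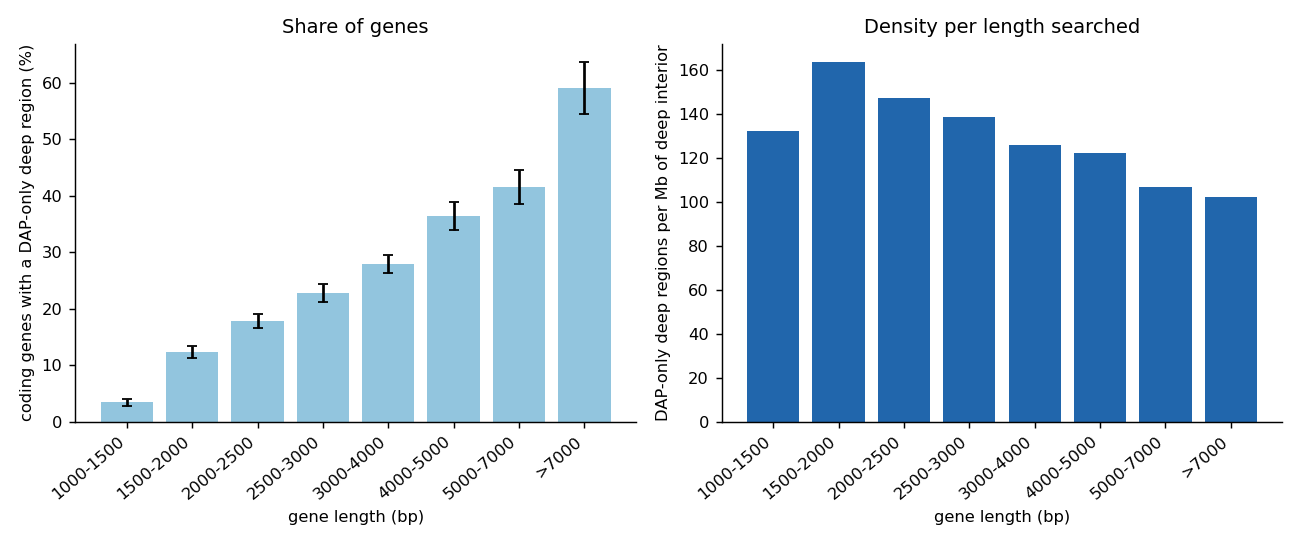
Left, the percentage of eligible arm coding genes that held a DAP-only deep region, by gene length in bp, with 95% exact binomial intervals. Right, such regions per Mb of deep interior in the same length classes; the share of genes goes up from 3.39% to 59.1%, while the density is highest at 1500 to 2000 bp (163.8 per Mb) and lowest above 7000 bp (102.5 per Mb).

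Most of these genes, 3734, held 1 region, 358 held 2, 40 held 3, 2 held 4 and 1 held 5. Neighbouring regions of 1 gene lay a median of 1495 bp apart. AT1G48090, a gene of 26499 bp, held 5, with folds between 1.76 and 3.73 in replicate 1 and between 2.05 and 4.18 in replicate 2. EDA10, named after a mutant arrested in embryo sac development, held 4 in 7325 bp, with folds of 2.07 to 3.59 in replicate 1 and 2.03 to 3.90 in replicate 2. AT1G58050 held 4 in 9250 bp and had no reproducible ChIP region in or within 1000 bp of it; its folds were 2.05 to 3.19 and 2.39 to 3.04. These genes held many regions of middling signal. AT1G76780, with 3 in 7823 bp, differed, at folds of 2.76, 14.0 and 8.60 in replicate 1 and 3.30, 13.7 and 8.43 in replicate 2. ABCB2, an ABC transporter, held 3, the strongest with 8.87 and 9.07 (chr4:13179389-13180056) and the others between 3.34 and 3.58. AT1G69550 held 3, with 6.47, 4.48 and 3.01 in replicate 1 and 5.45, 4.69 and 3.02 in replicate 2.

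Gene families were described by the share of their genes and by the density per Mb, since long genes held regions more often. Density was itself lower in long genes, at 163.8 per Mb for 1500 to 2000 bp and 102.5 above 7000 bp. The density over all genes is not matched to the gene lengths of a family. Of 25 families written out by name, 17 had a larger share of eligible genes with a region than the 20.0% of all genes, but 12 had a higher density than the 128.4 per Mb over all. The densities carry Poisson intervals for counting error only, not adjusted for the number of families. In none of the 25 did the interval lie wholly above the overall density, and in 1 it lay wholly below. Many families have few genes, and their intervals are wide. Genes were assigned by patterns in their symbols or synonyms, so genes named only by locus or by another symbol are missed. Each count is over the genes matched, not over the whole family, and the strongest gene named is the strongest of those.

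Among the families reported, cytochrome P450 and ABC transporter genes held the largest numbers and also had the most eligible genes. The share over all eligible genes was 20.0%, close to that of the P450 genes. Of 220 cytochrome P450 genes, haem oxygenases of secondary metabolism and hormone turnover, 47 held a region (21.4%), at 170.1 per Mb (interval 125.8 to 224.9) and median folds of 3.69 and 3.36. The strongest were in CYP712A2 (8.08 and 9.13) and CYP705A23 (7.84 and 8.81). Of 112 ABC transporter genes 48 held one (42.9%), at 163.5 per Mb (126.7 to 207.6); beside ABCB2, ABCG29, an exporter of a lignin precursor, had 6.22 and 6.11. UDP-glycosyltransferases held them in 8 of 58 genes, led by UGT84B2 (6.20 and 5.95) and UGT76D1 (4.58 and 4.14). Ion pumps of the P-type held them in 13 of 34, with ACA9, a calcium pump of pollen, at 6.03 and 5.73 and HMA4, which exports zinc and cadmium towards the shoot, at 6.05 and 5.55. In nitrate, peptide and potassium carriers the count was 13 of 43, with NRT1:2, a nitrate transporter, at 5.20 and 5.15 and KUP3, a potassium transporter, at 4.93 and 5.25. Cation channels gave 11 of 38, with GLR2.3 at 5.49 and 5.53 and CNGC16 at 5.24 and 4.52. All of these densities had intervals that include the overall 128.4 per Mb.

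Genes of the cell wall and cytoskeleton are long, and a high share of them held a region. Of 33 myosin and kinesin genes 22 did (66.7%), yet per Mb they had 142.5 (98.1 to 200.1). ATM2 had 6.97 and 6.88 and MYA1, a myosin of organelle movement, 5.47 and 5.69. Of 8 callose synthase genes, with a median length of 11614 bp, 5 held one, but the density was 55.4 per Mb (17.99 to 129.3); GSL04 had 4.87 and 4.67 and GSL11 2.63 and 2.61. The cellulose synthase superfamily gave 13 of 37 genes at 119.1 per Mb (66.6 to 196.4), with CSLG3 at 6.76 and 7.78 and CSLA02, a mannan synthase, at 5.70 and 6.37. By value, the share of genes and the density put these families in different orders. The density intervals overlap one another and include the 128.4 per Mb over all genes, so an order by density is not established.

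Among genes of signalling and immunity, 15 of 39 named leucine-rich repeat receptor kinases held a region, and the pollen kinases PRK5 and PRK4 (10.7 and 10.6) were the strongest. The calcium-regulated kinases of the CDPK and CIPK families gave 16 of 52 genes and 185.4 per Mb (109.9 to 293.0), with CPK2 at 6.22 and 6.03 and CPK33 at 4.98 and 5.35. Cysteine-rich receptor-like kinases gave 7 of 35, with ARCK1, a kinase of the abscisic acid and osmotic stress response, at 4.87 and 5.27 and CRK5 at 3.07 and 3.46. Of the 8 immune receptor genes matched by name, a small part of that family, 4 held a region, among them RPS4 (3.46 and 3.64) and RPM1 (2.59 and 2.92). Of the ubiquitin ligase genes matched, 3 of 27 F-box genes held one, with VFB2 at 10.9 and 11.02 and ARABIDILLO-1, which promotes lateral roots, at 6.01 and 5.39, and so did 5 of 22 U-box genes, with PUB18 (4.15 and 4.32) and PUB19 (4.06 and 4.30), a pair that dampens drought and abscisic acid responses. Subtilases with an SBT symbol, which are secreted proteases, gave 2 of 5, SBT5.4 (3.96 and 4.36) and SBT4.12 (2.76 and 2.69). Of the 13 pentatricopeptide repeat genes picked up by name 0 held a region, over only 0.0152 Mb of deep interior. The patterns missed most of this large family. LOJ, a gene of the family under another name, held a region with folds of 11.3 and 10.6. ZTL, an F-box protein of the circadian clock (8.21 and 8.51), and ALE1, a subtilase of cuticle formation (6.57 and 6.68), were missed likewise; all 3 were named after their values were seen.

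Among transcription factors the share of genes with a region went from 13.1% in the NAC family to 35.7% in the auxin response factors. In the NAC family it was 11 of 84 eligible genes, with 12 regions and 113.6 per Mb (58.7 to 198.5). The median folds of these 12, 4.39 and 4.33, were above those of all regions, over a small number. This was not particular to the NAC family. Other families also had higher medians, such as the cellulose synthase superfamily (3.77 and 3.998) and, over 3 regions, F-box genes (6.01 and 5.39). Some had lower ones, such as genes of endoplasmic reticulum stress and folding (2.34 and 2.41). The strongest were in ANAC026, or VND5 (chr1:23216458-23217151, 6.88 and 7.46), and NAC007, or VND4 (chr1:4163266-4163760, 6.63 and 7.22), both of the group of NAC factors that drive the formation of xylem vessels. FEZ, a NAC factor of root cap stem cells that was named here after its values were seen, held 2, both weak (2.18 and 2.23, and 2.01 and 2.01). In the MYB family 17 of 111 genes held one, at 200.5 per Mb (120.7 to 313.1), with MYB67 at 6.49 and 6.47 and MYB16, a regulator of cuticle and epidermal cells, at 5.85 and 6.88. WRKY factors gave 12 of 67, with WRKY72, of basal defence, at 6.65 and 6.88 and WRKY10, of endosperm growth, at 4.77 and 5.23. Auxin response factors gave 5 of 14, led by ARF11 (3.67 and 3.98) and ARF16 (3.40 and 3.06).

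Chromatin and DNA repair genes, many of them long, were mixed. The patterns for these families did not take in RAD5. SNF2 remodeller genes gave 14 of 25 at 107.8 per Mb (110.7 with RAD5 counted), with RAD54, of recombination, at 4.91 and 4.95 and ATRX, a histone H3.3 deposition factor, at 4.46 and 4.93. Genes of the small RNA pathway gave 10 of 15 at 163.5 per Mb, with DCL4, a Dicer-like enzyme, at 4.42 and 5.01 and AGO3, an Argonaute, at 4.68 and 3.998. DNA repair and meiotic recombination genes gave 9 of 33 at 68.8 per Mb (34.4 to 123.1), the single family whose interval lay below the overall density. With RAD5 counted, an alternative chosen after seeing the data, it was 10 of 34 genes at 72.8 per Mb (37.6 to 127.1), an interval that ends close to the overall 128.4. The 33 genes had a median length of 5452 bp. All eligible genes of 5000 to 7000 bp had 107.0 per Mb, a value within both intervals. Of the genes matched, RAD51B had 7.86 and 6.90 and RAD50 3.42 and 4.16. Genes of endoplasmic reticulum stress and folding, the response in which NAC103 acts, gave 5 of 30 (16.7%) at 76.1 per Mb (24.7 to 177.5), an interval that includes the overall density, with median folds of 2.34 and 2.41. The strongest of those matched by name, which need not be the strongest of this response, were PDIL1-6, of the protein disulfide isomerase family (3.61 and 3.32), and CRT3, a calreticulin (3.21 and 3.32).

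**Figure D5:**
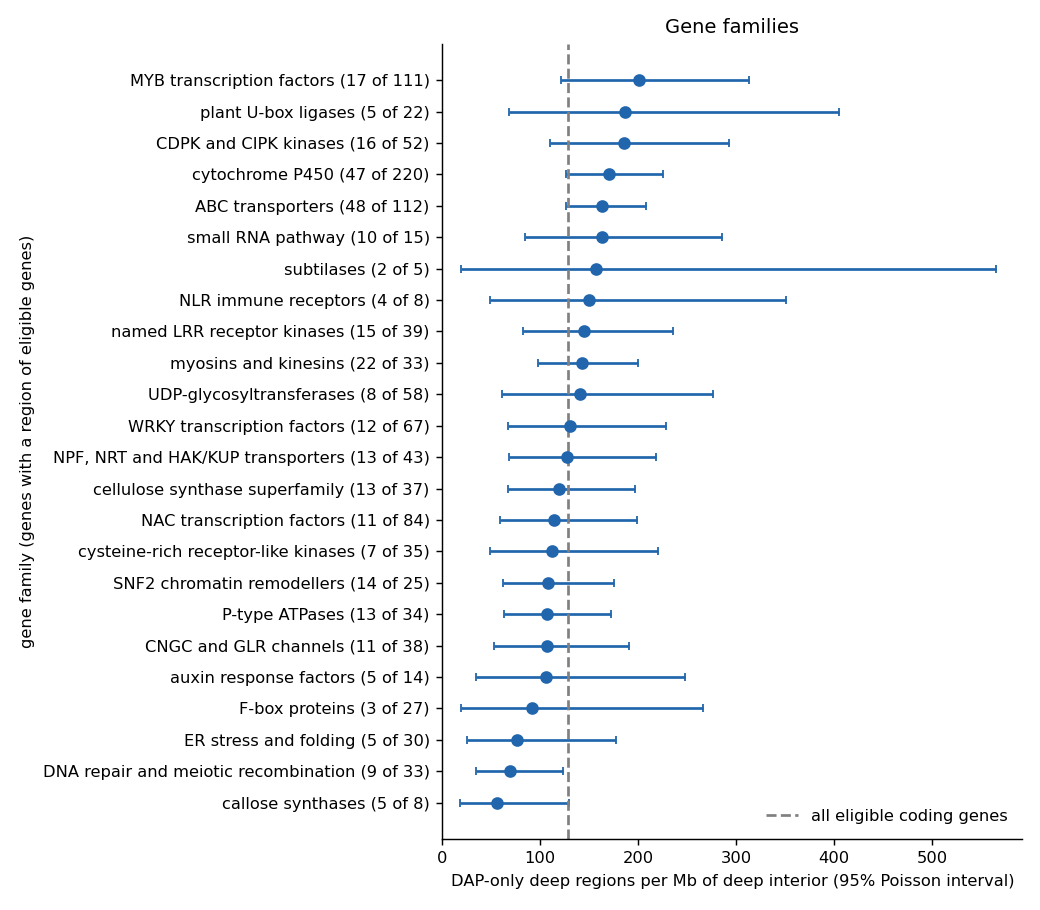
DAP-only deep regions per Mb of deep interior for the 24 gene families with at least 1 such region (points, with 95% Poisson intervals for counting error), with the number of genes holding one of all eligible genes in brackets. The dashed line is the density over all eligible genes, 128.4 per Mb; the interval of DNA repair and meiotic recombination genes lies below it and the others include it. The line is not matched to the gene lengths of a family.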

How the data were processed

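Per the submitters' processing notes, BWA, MACS2 and TAIR10 were used; versions and settings are not given in the sources used here. The 5 deposited lists hold narrow peaks of single replicates set against input. The authors' deposited values per peak are a score, a fold (a ratio over background), −log10 p and −log10 q, and the summit; the fold served only to rank and describe regions within a list. Organelle peaks were left out. Peaks on nuclear chromosomes were merged as described in the report; the arm was judged by a region's midpoint, and coordinates are 1-based on TAIR10. Gene ends and names came from RefSeq's table of TAIR10.1, which shares these chromosomes. Strand, exons, introns, sequence motifs and base composition were not analysed here, although they were planned. Deep interior is coding-gene sequence more than 500 bp from both ends. Intervals are exact binomial or Poisson at 95%. Regions are not replicates; whether samples of 1 group are separate cultures is not labelled, so their spread may be technical.

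Members and lists were chosen with earlier results of these data known. Families were matched by name patterns; 54 matches to other proteins were then removed by reading their annotation. Genes without a matching name are missed. The result of 1 family is not reported here and enters none of the counts. Named genes are NAC103, the 15 highest-ranked members, the 6 genes with most members (ties by mean rank), 3 regions on either side of the 500 bp limit, and the 2 best-ranked genes of each family with at least 2; FEZ, LOJ, ZTL and ALE1 were added after their values were seen. Calculations used Python 3.11.15, numpy 2.4.6, pandas 2.3.3 and scipy 1.17.1, and the region rule was tested on simulated data.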

Additional observations from a re-analysis of the deposited data

How the results depend on the processing

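Depth is unknown, and a region without a listed ChIP peak may hold weaker signal; how much of the share depends on ChIP depth was not tested. No paired analysis was possible because the values come from no test and the replicate numbers of ChIP and DAP are not shared by labelled material. The number of regions stayed within 1.5 times of 4561 under 10 of 11 alternatives and the number of genes within 1.5 times of 4135 under 10; more than 1000 bp from both gene ends gave 2056 regions in 1872 genes, 14.33% of arm DAP regions, 110.8 per Mb and a median fold of 2.85, since less sequence is eligible. Leaving out 1 ChIP or DAP replicate gave 4574 to 5342 regions, 4148 to 4745 genes, shares of 31.9% to 35.5%, 128.8 to 150.4 per Mb, median folds of 2.71 to 2.92 and a difference in ChIP-free share between deep and near-end positions of 13.0 to 19.7 points. With −log10 q of at least 10 the share was 38.5%, the median fold 3.18 and the difference 7.25 points. Where a ChIP peak had to cover 50% of the region, they were 35.6%, 2.91 and 11.9 points, at 143.7 per Mb. Where a ChIP peak within 500 bp also excluded, they were 23.9%, 2.90 and 13.9 points, at 96.7 per Mb. More than 300 bp from both ends gave 40.2% and 2.89. Judged by narrower bands, the share left its 95% interval under 7 of the 11 alternatives and the density per Mb under 7. The median fold moved by more than the SD of the 2 DAP replicates under 8. The difference left its 95% range of counting error under 5. The difference kept its sign under all 11, and the cause of these shifts was not tested beyond the construction of each alternative. Of the 15 strongest regions, 5 remained at more than 1000 bp, 11 with the 500 bp exclusion, 14 by summit and 15 under the other 8.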
